A study of Mus musculus with 6 samples.

Results

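The 9 genes described here are those that a developing B cell needs to commit to its lineage and to assemble its first receptor: Pax5, Ebf1, Cd79a, Cd79b, Ighm, Igll1, Vpreb1, Blnk and Ms4a1. They were listed by symbol, with earlier results of these data known, and each symbol matched 1 Ensembl gene among the 47729 genes counted in every library. RNA was sequenced from DN1a/b thymocytes, an early immature stage of the mouse thymus, sorted by flow cytometry in 3 groups of 2 libraries. All mice were C57BL/6. RBPJ binds DNA and is the partner that a cleaved Notch receptor needs to turn its target genes on. The groups were Control, RBPJ uninduced (mice deficient in RBPJ) and RBPJ 6 days induced (such mice in which doxycycline switched RBPJ on, with 2 mg/ml injected first and 1 mg/ml then given in the drinking water). The genotype of the Control mice beyond that name, whether Control or uninduced mice received doxycycline, the promoter of the inducible gene, the cells in which RBPJ was lost and the sort gates are not stated in the labels. Nothing in the labels tells if replicates are different mice, and p-values therefore measure only the spread between these libraries, which may be technical.

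B-lineage commitment depends on a small set of transcription factors in which EBF1 acts early and PAX5 maintains B-cell identity while repressing the genes of other lineages. A pro-B cell rearranges the heavy chain locus first, and the µ heavy chain, whose constant part Ighm encodes, then pairs with the surrogate light chain made from VPREB1 and λ5 (Igll1) to form the pre-B receptor. CD79A and CD79B carry its signal into the cell, where the adaptor BLNK passes it on, and Ms4a1 encodes CD20, a surface protein of later B cells. In the thymus, Notch signalling in early progenitors is known to favour the T lineage over the B lineage.

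The uninduced libraries stood apart from each other, and the results below depend on that. Levels are CPM, counts scaled to a common library size after TMM normalization. Rbpj, the targeted gene, was at 74.1 and 72.9 CPM in the Control libraries, at 28.2 and 30.0 CPM in uninduced and at 198 and 203 CPM in induced ones, so each library matched its label in order. Whether the remaining reads in the uninduced libraries lie outside a deleted part of the gene was not tested. Total counts ran from 5098927 to 12932928, with the lowest in uninduced replicate 1 and the next lowest, 5311391, in Control replicate 2. Replicates differed beyond sampling noise in every group, with a chi-square per degree of freedom over genes of 20.6 in Control, 54.1 in uninduced and 16.4 in induced. Mitochondrial ribosomal RNA held 16.5% of the counts of uninduced replicate 2 and 9.26% to 12.4% of the others. The DN1 progenitor genes Kit, Cd44 and Flt3 were above 0 in all 6 libraries, with a summed level of 615 to 1144 CPM.

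Promoter sequence was available for 6 of the 9 genes in the RefSeq table used, on build GRCm38.p6, and not for Cd79b, Ighm and Ms4a1. The windows of Igll1 and Vpreb1, the surrogate light chain genes, and of the receptor subunit gene Cd79a are printed because all 3 products belong to the pre-B receptor and all 3 windows held the same short motif. Each is written 5′ to 3′ on the gene's own strand and ends just before the RefSeq transcription start, except that of Cd79a, from which 116 bases inside an annotated untranslated region were left out. Capitals mark the E-box, the letters CAGNTG read on either strand, to which basic helix-loop-helix proteins such as E2A bind. The Igll1 window is chr16:16863986-16864235 on the minus strand, that of Vpreb1 is chr16:16869256-16869505 on the minus strand, and the part of the Cd79a window shown is chr7:24897247-24897380 on the plus strand.
Igll1: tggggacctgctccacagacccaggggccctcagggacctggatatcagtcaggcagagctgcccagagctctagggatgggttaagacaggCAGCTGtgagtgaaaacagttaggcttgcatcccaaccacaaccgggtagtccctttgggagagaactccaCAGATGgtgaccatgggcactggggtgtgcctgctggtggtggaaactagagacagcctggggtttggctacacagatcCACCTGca
Vpreb1: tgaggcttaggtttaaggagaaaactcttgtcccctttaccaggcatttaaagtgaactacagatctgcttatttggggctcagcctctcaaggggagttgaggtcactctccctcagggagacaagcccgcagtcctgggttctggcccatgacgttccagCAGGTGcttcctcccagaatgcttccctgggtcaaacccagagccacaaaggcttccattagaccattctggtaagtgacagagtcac
Cd79a: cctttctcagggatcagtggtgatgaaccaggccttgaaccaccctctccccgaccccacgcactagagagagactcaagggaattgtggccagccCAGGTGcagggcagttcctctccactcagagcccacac
Igll1 held the E-box at 3 places, whose first letters lay 158, 87 and 8 bases before the start, Vpreb1 at 1 place 88 bases before it, and Cd79a at 1 place 154 bases before it. The window of Blnk, which is not printed because an untranslated region covers it, held the E-box at 2 places, 243 and 160 bases before the start. It also held the octamer ATGCAAAT, read on the opposite strand, 130 bases before the start. The E-box letters occurred in 44.8% of the 32851 promoter windows of 250 bases in the table, and the octamer in 1.6% of them. The ETS-type letters AGGAAGT, found in Cd79a and Blnk, occurred in 7.69% of windows, the RBPJ core TGGGAA, found in the window of 1 of the Ebf1 starts, in 21.6%, and the EBF motif, TCCC and GGGA parted by 2 bases and found in no window of these genes, in 0.779%. Each motif was searched on both strands, and no 2 matches in these windows overlapped, apart from the palindrome CAGCTG, which reads the same on both. A match describes letters only and is not a binding site.

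Pax5 (ENSMUSG00000014030), on chromosome 4 at 44524757 to 44710487 of GRCm38, encodes the factor that maintains B-cell identity. It was at 0.228 and 3.89 CPM in the Control libraries, 5.39 and 249 CPM in the uninduced libraries, and 0 and 11.6 CPM in the induced libraries. A single library, uninduced replicate 2 with 2234 counts, therefore held nearly all of the Pax5 reads, since the other 5 libraries had 0 to 125. The count of 0 in induced replicate 1 allows a level of up to 0.265 CPM, taking 3 counts as the limit. Ebf1 (ENSMUSG00000057098; chromosome 11, 44617317 to 45008091), which encodes the early B-lineage factor, followed the same order of libraries closely. Its levels were 0.533 and 3.54 CPM in Control, 5.39 and 162 CPM in uninduced, and 0.265 and 5.31 CPM in induced. Within the uninduced group the level in replicate 2 over that in replicate 1 was 46.2 for Pax5 (95% exact counting interval 32.5 to 68.2) and 30.0 for Ebf1 (21.03 to 44.3). Both factors were also higher in replicate 2 than in replicate 1 of the other groups, though at low levels. In the induced group Ebf1 was 20.05 times higher in replicate 2 (6.52 to 100.1), and Pax5 at least 44.0-fold higher, against a floor of 3 counts in replicate 1. Such intervals and floors cover counting error only. In bulk RNA, a change in the number of cells of a type and a change in the RNA of each cell cannot be told apart.

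Ighm (ENSMUSG00000076617; chromosome 12, 113418558 to 113422730), the constant part of the µ heavy chain, was the most abundant of the 9 genes and did not follow the other 8. It was at 264 and 171 CPM in Control, 32.3 and 644 CPM in uninduced, and 194 and 180.2 CPM in induced. It was thus well above 100 CPM in 5 libraries, lowest in uninduced replicate 1 and highest in uninduced replicate 2, and the 4 Control and induced libraries lay between these extremes. The ratio within the uninduced group was 19.9 (17.2 to 23.2), while the Control and induced ratios of replicate 2 over replicate 1 were 0.648 and 0.930. Corrected for the length of its exons, Ighm was at 341 CPM per kilobase in uninduced replicate 2 and 17.1 CPM per kilobase in uninduced replicate 1. It ranked first per kilobase in each of the 6 libraries, with Cd79b second in each.

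The surrogate light chain genes had the lowest average levels over the 6 libraries, at a log2 CPM of 1.40 for Igll1 and 1.11 for Vpreb1, against 3.56 or more for the others. This order did not hold in every library. Igll1 (ENSMUSG00000075370; chromosome 16, 16860671 to 16863985), which encodes λ5, had 0 and 5 counts in Control, 0 and 120 in uninduced, and 0 and 3 in induced. In uninduced replicate 2 this was 13.4 CPM, at least 25.6-fold above uninduced replicate 1 when its count of 0 is set to the floor of 3. Vpreb1 (ENSMUSG00000059305; chromosome 16, 16868403 to 16870843), which encodes the other surrogate chain, lies 4417 bases from Igll1. It was at 0.533 and 0.177 CPM in Control, 1.56 and 9.03 CPM in uninduced, and 0.265 and 0.0932 CPM in induced. Its 81 counts in uninduced replicate 2 were again the most of any library, and the ratio to replicate 1 was 5.77 (2.89 to 13.1), the lowest of the 9 genes. Unlike Pax5 and Ebf1, Vpreb1 was not higher in replicate 2 of the Control or induced group, where it had at most 7 counts.

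The signalling genes showed the same high library with different base levels. Cd79a (ENSMUSG00000003379; chromosome 7, 24897381 to 24902197), which encodes the Igα chain of the receptor, was at 0.228 and 1.95 CPM in Control, 6.09 and 75.3 CPM in uninduced, and 1.24 and 4.19 CPM in induced. Here uninduced replicate 1 was also above all Control and induced libraries. Cd79b (ENSMUSG00000040592; chromosome 11, 106311341 to 106314762), for the Igβ chain, was at 5.03 and 8.31 CPM in Control, 7.13 and 78.9 CPM in uninduced, and 5.65 and 11.6 CPM in induced. It had at least 41 counts in every library, and uninduced replicate 1 lay within the range of the Control libraries. Per kilobase, Cd79b and Cd79a were close in uninduced replicate 2, at 55.1 and 51.7 CPM per kilobase, and far apart in Control replicate 1, at 3.51 and 0.157. Blnk (ENSMUSG00000061132; chromosome 19, 40928927 to 40994535), for the adaptor that links the receptor to its enzymes, was at 0.152 and 2.65 CPM in Control, 2.09 and 58.5 CPM in uninduced, and 1.41 and 4.38 CPM in induced. The uninduced ratios were 12.4 for Cd79a (8.81 to 17.9), 11.1 for Cd79b (8.08 to 15.6) and 28.05 for Blnk (15.9 to 54.6).

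Ms4a1 (ENSMUSG00000024673; chromosome 19, 11249675 to 11266241), which encodes CD20, was at 0 and 1.77 CPM in Control, 4.52 and 81.9 CPM in uninduced, and 0 and 2.98 CPM in induced. The uninduced ratio was 18.1 (12.3 to 27.9), and the uninduced libraries lay above the other 4. Induced replicate 2, with 32 counts, was at least 11.3-fold above induced replicate 1, which had none.

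**Figure D1:**
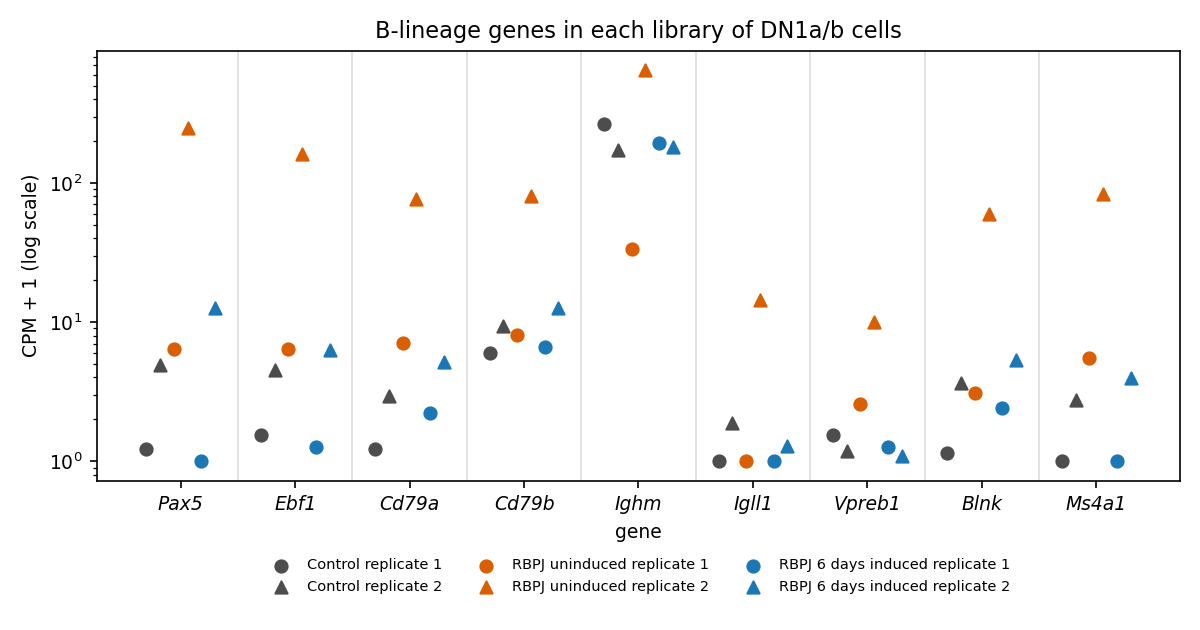
Level of each of the 9 genes in each of the 6 libraries, as CPM + 1 on a log axis, with colour for the group and a circle or triangle for replicate 1 or 2. In each gene the orange triangle, uninduced replicate 2, is the highest point, and for Ighm the orange circle, uninduced replicate 1, is the lowest.

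Across the 9 genes, uninduced replicate 2 held the highest level 9 times of 9. Among the 18174 genes tested, 23.8% had their highest level in that library. On the CPM + 1 scale, which dampens ratios of low genes, 8 of the 9 genes were at least 4-fold higher in uninduced replicate 2 than in replicate 1, against 2.97% of tested genes. The exception was Vpreb1, just under the threshold at 3.91. The median ratio of the 9 genes was 15.02, and that of all tested genes 1.07. In the Control group none of the 9 genes passed 4-fold, although the 4.77% of tested genes that did was larger than in the uninduced group, and the median ratio was 2.40 (all genes 1.04). Pax5, at 3.98, lay just inside that limit. In the induced group Pax5 and Ebf1 passed, at 12.6 and 4.99, against 0.127% of tested genes, and the median was 2.23 (all genes 1.00). Ms4a1, at 3.98, was next. Without the added 1, the Control ratio was 17.0 for Pax5 (5.12 to 88.9), 17.4 for Blnk (4.05 to 157), 8.52 for Cd79a (2.25 to 47.6) and 6.64 for Ebf1 (2.70 to 18.6). These 4 ratios rest on at most 22 counts in a library. It was 1.65 for Cd79b, 0.648 for Ighm and 0.332 for Vpreb1, and Igll1 and Ms4a1 had 0 counts in Control replicate 1.

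**Figure D2:**
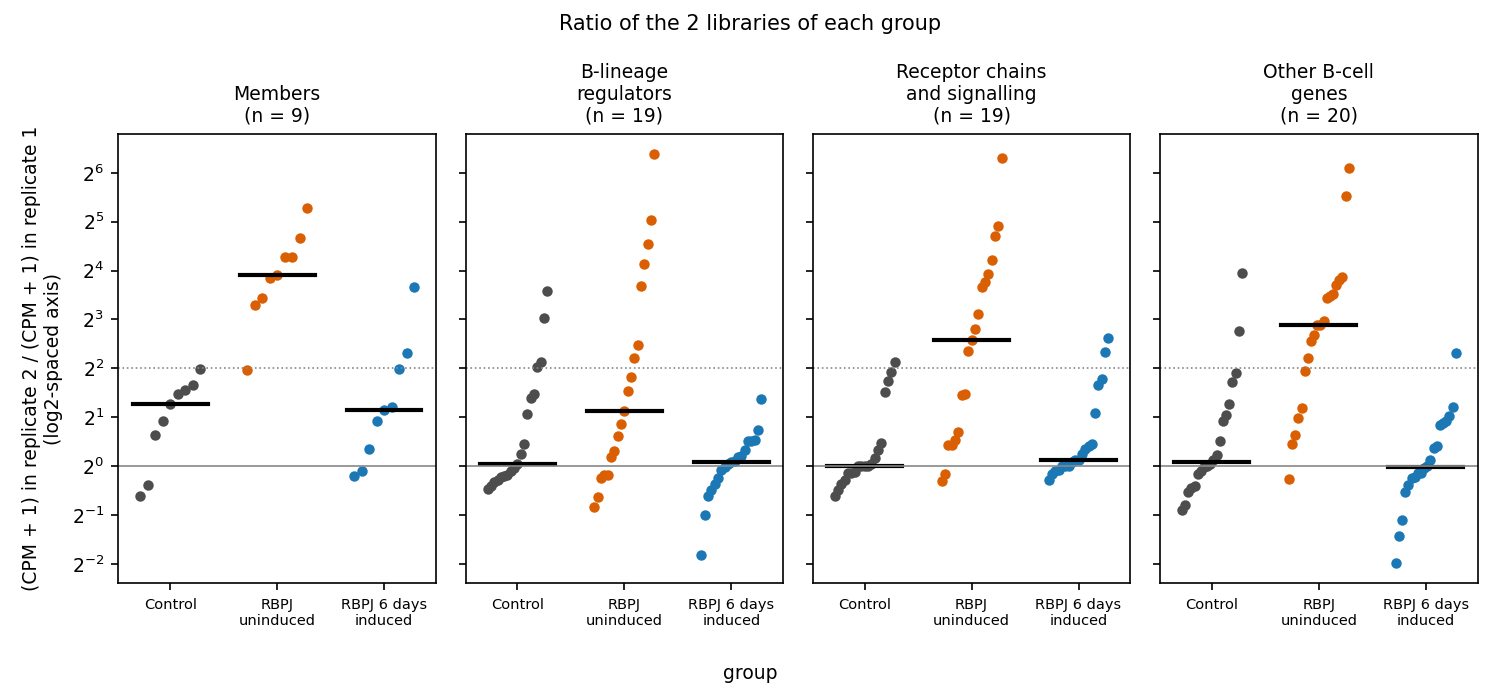
Ratio of (CPM + 1) in replicate 2 to that in replicate 1 of each group, 1 point per gene, on a log2-spaced axis, for the 9 genes (called members in the panel title) and 3 lists of other B-lineage genes. Black bars are medians and the dotted line is 4-fold. For the 9 genes the median is 15.02 in the uninduced group, 2.40 in Control and 2.23 in induced.

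The genes whose levels over the 6 libraries were most like Pax5, by Pearson's r of log2(CPM + 1) over 10222 genes with sufficient signal, were Ebf1 (0.990), Chst3 (0.989), Cd22 (0.989), Sdhaf1 (0.989) and B3glct (0.984). Those most like Igll1 were Plekhm1 (0.996), Ltf (0.993), Fam129c (0.993), Smim13 (0.992) and Ehd1 (0.989). These values describe 6 libraries that share the 1 high library, and r does not depend on the size of the difference. Sdhaf1, for example, ran only from 6.02 to 12.3 CPM while Chst3 ran from 0.177 to 112 CPM. Among the other 8 genes, r with Pax5 was 0.816 to 0.990 apart from Ighm, at 0.40.

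The first comparison, RBPJ uninduced against Control, addresses which genes differ when RBPJ is missing. Cd79a was the single member that passed the test, higher in the uninduced libraries by 5.49 on the log2 scale (SE 1.31, adjusted p = 0.0435, edgeR quasi-likelihood test with Benjamini-Hochberg adjustment over all tested genes). That is 1 of 9 called higher and 0 called lower, where 2.49% of all tested genes were called higher and 2.93% lower. Fitted log2 differences were above 0 for all 9 genes, with a median of 4.66 against -0.02 for all tested genes. At an unadjusted p below 0.05 there were 7 of the 9, and the share of all tested genes at that level was not counted. The factors had log2 differences of 6.28 for Pax5 (SE 2.01, adjusted p = 0.118) and 5.58 for Ebf1 (SE 1.61, adjusted p = 0.0845). Ms4a1 was at 6.00 (SE 1.84, adjusted p = 0.103), Blnk at 4.66 (SE 1.50, adjusted p = 0.119) and Cd79b at 2.72 (SE 0.894, adjusted p = 0.127). The surrogate chain genes were at 4.07 for Igll1 (SE 2.30, adjusted p = 0.397) and 3.78 for Vpreb1 (SE 1.45, adjusted p = 0.193), and Ighm at 0.64 (SE 0.889, adjusted p = 0.807). In 5 genes, Pax5, Ebf1, Cd79a, Vpreb1 and Ms4a1, both uninduced libraries lay above both Control libraries, which held in that direction for 22.1% of tested genes. Vpreb1 passed the count filter only through the uninduced libraries, so its values here are not separate support.

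These differences rested on uninduced replicate 2. Without it, none of the 8 genes that could be tested was called higher and Ighm was called lower, with a log2 difference of -2.78 against Control, where 2.98% and 5.54% of tested genes were called higher and lower. The values were then 1.49 for Pax5, 1.46 for Ebf1, 2.57 for Cd79a (adjusted p = 0.276), 0.11 for Cd79b, 2.03 for Vpreb1, 0.65 for Blnk and 2.45 for Ms4a1, and Igll1 did not pass the count filter. Without uninduced replicate 1 instead, 8 of 9 genes were called higher (4.79% of tested genes), all but Vpreb1, and Ighm was among them at 1.50. In each of these fits the 1 remaining uninduced library is assumed to vary like those of the other groups. The call of Cd79a was also lost without Control replicate 1 (adjusted p = 0.143) and without Control replicate 2 (adjusted p = 0.0698), where none of the 9 was called higher, against 0.868% and 1.03% of tested genes. Leaving out induced replicate 1 or 2, which do not enter the difference but help set the spread, gave 6 genes called higher each, where 2.14% and 1.97% of tested genes were. Without the filter on low counts 6 genes were called higher (2.03% of tested genes), by DESeq2 3 (4.48%), and in a fit of the 4 compared libraries 0 of the 8 that could be tested (0.603%).

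**Figure D3:**
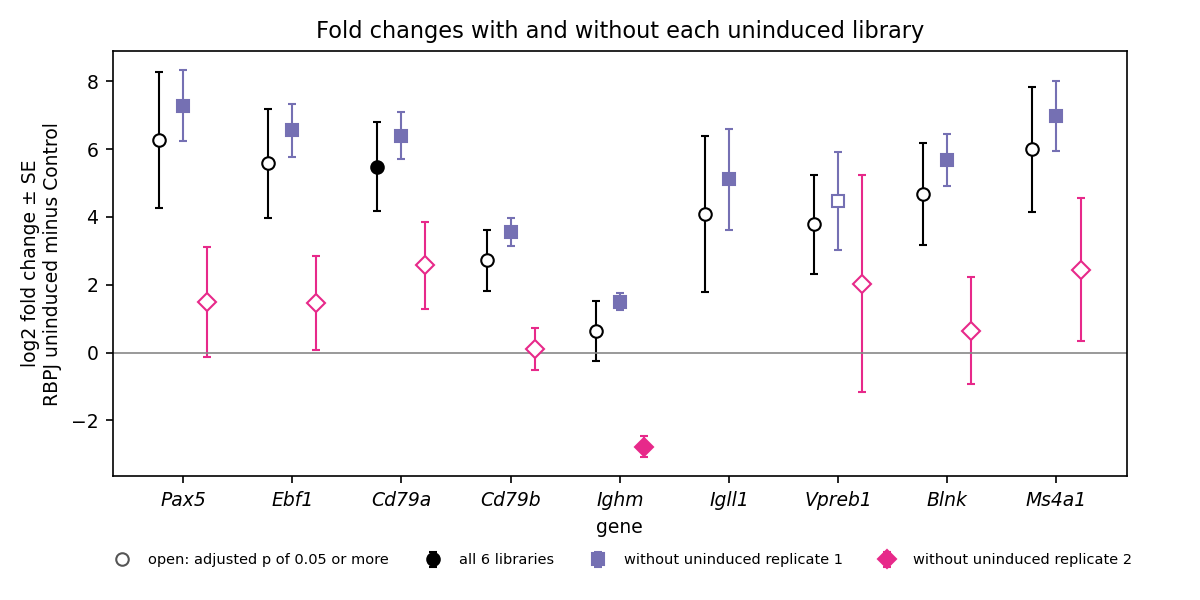
Log2 fold change, uninduced minus Control, with its standard error, for each of the 9 genes with all 6 libraries (black circles), without uninduced replicate 1 (purple squares) and without uninduced replicate 2 (pink diamonds). Filled symbols have an adjusted p below 0.05. Cd79a is filled with all libraries, and without uninduced replicate 2 the pink points drop toward or below 0, with Ighm at -2.78. Igll1 has no pink point because it could not be tested there.

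The second comparison, induced against uninduced, addresses what returns when RBPJ is switched on. It shares the uninduced libraries with the first, so its values are given beside those and not as separate support. By the edgeR test none of the 9 genes was called, where 0.413% of tested genes were called lower and 1.55% higher. At an unadjusted p below 0.05 there were 7, again with no share of all tested genes counted to set beside it. DESeq2 called 1, Cd79a, lower (2.71% of tested genes). All 9 log2 differences were below 0, with a median of -4.46 against -0.03 for all tested genes. They were -5.48 for Igll1 (adjusted p = 0.327), -4.92 for Ebf1 (0.147), -4.87 for Ms4a1 (0.183), -4.79 for Vpreb1 (0.165), -4.46 for Pax5 (0.249), -3.91 for Cd79a (0.131), -3.39 for Blnk (0.260), -2.33 for Cd79b (0.226) and -0.86 for Ighm (0.719). In 4 genes the groups did not overlap, with induced lower, which held in that direction for 21.8% of tested genes. Vpreb1, which passed the count filter only through the uninduced libraries, was among the 4. Without uninduced replicate 1, all 9 genes were called lower, against 2.61% of tested genes. Without uninduced replicate 2, none was called lower (1.11% of tested genes) and Ighm was called higher in induced, at 2.55, 1 of 8 genes tested (4.53% of tested genes). Without induced replicate 2, 4 genes were called lower (0.0762%), and without the filter on low counts 7 (0.88%).

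The last comparison, induced against Control, addresses whether induced cells return to Control levels. None of the 9 genes was called by edgeR or by DESeq2 and none had an unadjusted p below 0.05, where edgeR called 0.187% of tested genes in either direction and DESeq2 1.25%. Without the filter on low counts 1 gene, Pax5, was called higher, against 0.692% of tested genes. Log2 differences were above 0 for 6 genes and below 0 for 3, with a median of 0.67 against -0.02 for all tested genes, and in no gene were the groups separate, where 37.5% of tested genes were. The group means of Ighm were 187 ± 9.65 CPM in induced and 218 ± 65.8 CPM in Control (SD, n = 2 each). A p above the threshold does not show that the groups were alike, since the 8 less abundant genes had few counts in these 4 libraries.

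The 3 lists of other B-lineage genes, 58 in all, show how far the pattern of the 9 genes extends. Among 19 further B-lineage regulators, 1 was called higher in uninduced than in Control and none lower, against 2.49% and 2.93% of tested genes. Their median log2 difference was 0.16 (all tested genes -0.02). The called gene, Irf8, a factor of B cells and of myeloid and dendritic cells, was at 15.4 and 11.3 CPM in Control, 38.8 and 71.1 CPM in uninduced, and 48.0 and 55.3 CPM in induced. It rose by 2.03 on the log2 scale (SE 0.339, adjusted p = 0.0106), stayed called without either uninduced library, and lost its call without Control replicate 2 (adjusted p = 0.0651). The regulators with the largest difference between the uninduced libraries were Spib, Irf4, Ikzf3 and Id3. Spib, an ETS factor of B cells and plasmacytoid dendritic cells, was at 0.914 and 0.531 CPM in Control, 0 and 82.1 CPM in uninduced, and 1.06 and 2.42 CPM in induced. Irf4 acts in light chain rearrangement and in plasma cells. It was at 3.50 and 11.5 CPM in Control, 2.61 and 118 CPM in uninduced, and 9.36 and 5.78 CPM in induced. Ikzf3 (Aiolos) was at 2.59 and 41.9 CPM in Control, 4.87 and 136 CPM in uninduced, and 11.8 and 17.6 CPM in induced. Id3, an inhibitor of E proteins, was at 2.51 and 13.3 CPM in Control and 0 and 16.6 CPM in uninduced. In induced it was at 3.18 and 0.186 CPM. The median log2 difference of these regulators from Control was 0.36 without uninduced replicate 1 and -0.56 without uninduced replicate 2. In uninduced replicate 2, 7 of the 19 were at least 4-fold above replicate 1 (2.97% of tested genes) and 9 of 19 had their highest level (23.8%). In Control, 4 of the 19 were at least 4-fold higher in replicate 2 (4.77% of tested genes), and in induced 0 were (0.127%).

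Of 19 other receptor chains and receptor signalling genes, 15 could be tested and none was called in any of the 3 comparisons by edgeR. At an unadjusted p below 0.05 there were 8 in uninduced vs Control, 4 in induced vs uninduced and 1 in induced vs Control. The share of all tested genes at that level was not counted. Their median log2 difference between uninduced and Control was 0.55. Between the uninduced libraries, 11 of the 19 were at least 4-fold higher in replicate 2, against 2.97% of tested genes. There 14 of 19 peaked, against 23.8% of tested genes. Vpreb3, a protein of pre-B receptor assembly, had 260 counts in uninduced replicate 2, none in replicate 1 or Control, and at most 0.186 CPM in induced. Without uninduced replicate 1, all 19 could be tested, and 9 were called higher than Control and none lower (4.79% and 4.72% of tested genes), among them Cd22, Igkc and Ighd, and Vpreb3, which could not be tested with all 6 libraries. Without uninduced replicate 2, 15 could be tested, none was called higher and 4 were called lower (2.98% and 5.54% of tested genes), Blk, Cd72, Pik3ap1 and Pik3cd.

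Among 20 other B-cell genes, 1 was called higher and 2 lower in uninduced than in Control, against 2.49% and 2.93% of tested genes. In induced against uninduced, 2 were called higher, against 1.55% of tested genes. Dntt, which encodes terminal transferase, the enzyme that adds bases at junctions during early receptor rearrangement in B and T precursors, ran against the 9 genes. It was at 953 and 696 CPM in Control, 1.39 and 30.1 CPM in uninduced, and 250 and 243 CPM in induced. It fell by 5.65 on the log2 scale in uninduced (SE 0.875, adjusted p = 0.00769) and rose by 3.91 from uninduced to induced (SE 0.813, adjusted p = 0.0465), with calls that held without either uninduced library. Even so, its level in uninduced replicate 2 was above that in replicate 1, as for the 9 genes. Ptprc, which encodes the leukocyte antigen CD45, fell by 1.16 in uninduced (adjusted p = 0.00956) and rose by 1.04 in induced (adjusted p = 0.0290), though the second call was lost without induced replicate 1 (adjusted p = 0.120) or replicate 2 (adjusted p = 0.110). Tnfrsf13c, the receptor for the survival factor BAFF, was at 0.0761 and 0.177 CPM in Control, 1.04 and 29.0 CPM in uninduced, and 1.06 and 3.73 CPM in induced. It rose by 6.93 in uninduced (adjusted p = 0.0445), a call lost without uninduced replicate 2 (adjusted p = 0.469), without Control replicate 1 (0.174) and without Control replicate 2 (0.158). Fcrla, a protein of B cells related to Fc receptors, went from 0 to 45.4 CPM between the uninduced replicates, and Cxcr5, the chemokine receptor of follicular B cells, from 0 to 13.0 CPM. Cecr2, a chromatin protein, was at 1.91 and 199 CPM there. The median log2 difference of this list from Control was 1.75 without uninduced replicate 1 and -1.68 without uninduced replicate 2. In this list 14 of 20 genes were at least 4-fold higher in uninduced replicate 2, against 2.97% of tested genes. The median ratio was 7.37 on the CPM + 1 scale (all tested genes 1.07).

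Counts over the immunoglobulin loci place the Ighm values among the segments that rearrangement joins. The heavy chain constant genes summed to 270 and 187 CPM in Control, 34.8 and 684 CPM in uninduced, and 200.2 and 197 CPM in induced, most of it Ighm. The heavy chain variable segments summed to 3.50 and 19.1 CPM, 11.8 and 42.2 CPM, and 3.80 and 7.83 CPM in the same order. Variable segments thus made 1.28% of heavy chain variable and constant counts in Control replicate 1 (95% exact binomial interval 0.937% to 1.70%), 9.28% in Control replicate 2 (7.67% to 11.1%) and 25.4% in uninduced replicate 1 (20.3% to 31.0%), where 68 counts fell on 7 of 115 segments. In uninduced replicate 2 the share was 5.81% (5.26% to 6.41%), from 379 counts on 53 segments, between the Control libraries, and in induced it was 1.86% and 3.83%. The kappa light chain constant gene Igkc was at 1.45 and 8.31 CPM in Control, 4.17 and 135 CPM in uninduced, and 6.62 and 9.13 CPM in induced. Kappa variable segments summed to 39.3 CPM over 48 of 104 segments in uninduced replicate 2, 29.9 CPM over 32 segments in Control replicate 2, and 0.685 to 8.01 CPM in the other 4. Kappa joining segments had 128 counts in uninduced replicate 2 and 1 count in the other 5 libraries together, and 64 of them lay on Igkj5 (chromosome 6, 70723886 to 70723927). The lambda constant genes summed to 29.2 CPM in uninduced replicate 2 and to at most 2.80 CPM elsewhere. Near-identical variable segments can share reads, and the labels do not state how the authors' counting treated such reads. Ighd, the δ constant gene, is made together with Ighm in mature B cells, and the Ighd share of Ighm and Ighd counts was 4.97% in uninduced replicate 2 (4.44% to 5.55%), 6.03% in induced replicate 2 (5.04% to 7.14%) and 0.769% to 2.62% in the other libraries.

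**Figure D4:**
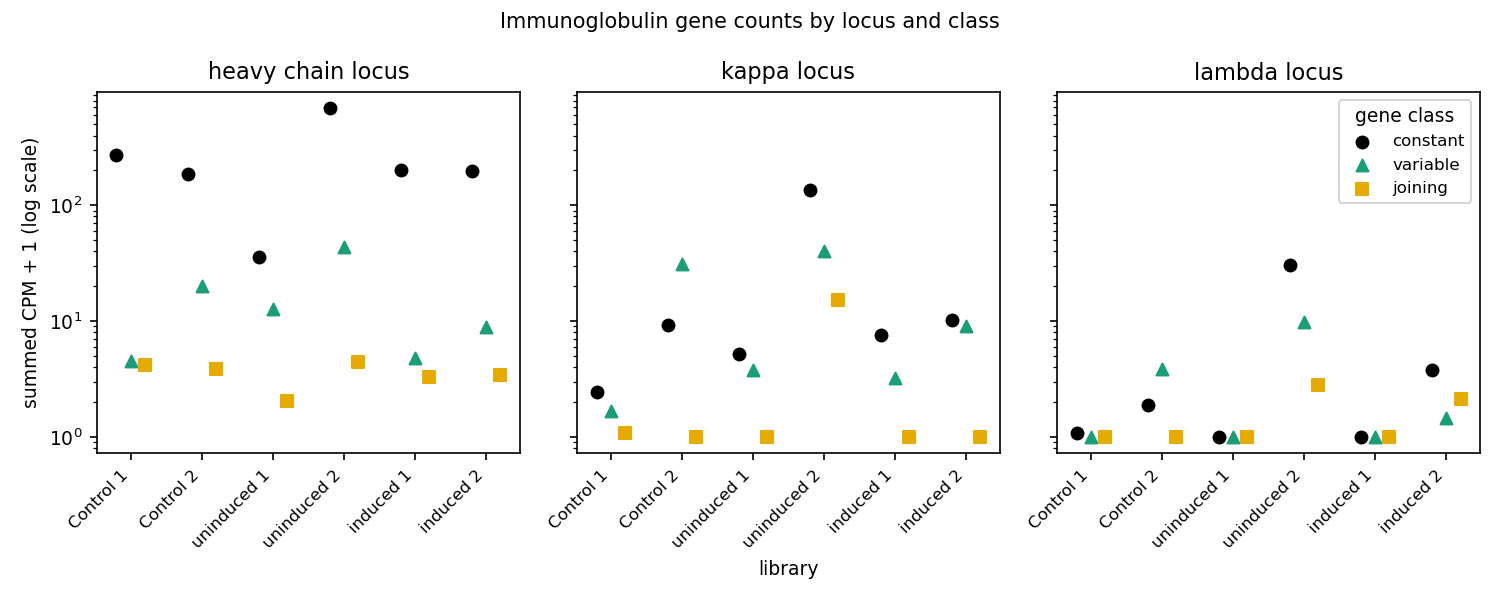
Summed level of the constant, variable and joining genes of the heavy chain, kappa and lambda loci in each library, as CPM + 1 on a log axis. The constant genes of each locus are highest in uninduced replicate 2, at 684, 135 and 29.2 CPM, and the heavy chain constant level is lowest in uninduced replicate 1, at 34.8 CPM.

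Markers of other cells moved with some of these values. A list of 8 mature B cell markers, which includes Ms4a1, summed to 9.14 and 22.8 CPM in Control, 15.3 and 388 CPM in uninduced, and 15.01 and 43.0 CPM in induced, with all 8 at 1 CPM or more in uninduced replicate 2 and 1 of 8 at 0 in uninduced replicate 1. In a list of 13 pro-B and pre-B cell markers, which holds 7 of the 9 genes, the sum was 987 and 994 CPM in Control, 43.6 and 933 CPM in uninduced, and 280.3 and 315 CPM in induced. Dntt took most of the Control and induced sums, and Rag1, a gene of the recombinase, was highest in Control replicate 2 at 256 CPM, against 126 CPM in uninduced replicate 2. The median of the list was 58.5 CPM in uninduced replicate 2 and 0.457 to 4.38 CPM elsewhere. In uninduced replicate 2, 0 markers were at 0, and in the other libraries 1 to 4 were. The median of 58.5 CPM is the level of Blnk itself, so it restates the 9 genes and is not separate support for them. For 6 plasma cell markers the sum was 79.5 CPM in uninduced replicate 2, with 1 of 6 at 0, and 37.4 to 50.8 CPM elsewhere, with 0 to 3 at 0. Xbp1 took most of these sums, at means of 48.1 CPM in uninduced and 42.1 CPM in Control. Means in the same order were 3.91 and 1.20 CPM for Sdc1, 3.68 and 2.92 CPM for Prdm1, and 6.94 and 0.0884 CPM for Mzb1. Those of Jchain were 0.390 and 0.822 CPM, and of Tnfrsf17 0 and 0.203 CPM. The 8 markers of plasmacytoid dendritic cells summed to 159 CPM in that library and 137 to 216 CPM in the others, mostly from Tcf4, with 0 of 8 at 0 there and 0 to 3 at 0 elsewhere. Within the list, Bst2 and Ly6d were highest in uninduced replicate 2, at 26.0 and 23.1 CPM, against 7.998 and 2.26 CPM in uninduced replicate 1. Other markers of the list had lower means in uninduced than in Control. These were 1.79 and 31.2 CPM for Ccr9, 0.223 and 5.03 CPM for Cox6a2, 0.502 and 3.07 CPM for Pacsin1, and 115 and 132 CPM for Tcf4. Klk1 was at 0.502 and 0.177 CPM. The defining gene Siglech was at 0.334 CPM in uninduced replicate 2 and at 0 to 1.95 CPM in the other libraries. The 6 myeloid markers summed to 4310 and 3202 CPM in the uninduced group and to 484 to 1593 CPM in the other 4, mostly from Mpo. Elane, Ctsg, Prtn3 and Cebpa also had higher means in uninduced than in Control. Csf1r did not, at means of 26.1 CPM in uninduced and 31.5 CPM in Control. The 10 T-lineage markers summed to 33.9 and 80.0 CPM in the uninduced group, against 447 to 1119 CPM. The 7 stromal markers, listed because stromal cells also make Ebf1, summed to 139 and 125 CPM in the uninduced group, against 354 to 409 CPM in the others, mostly from Pdgfrb and Pecam1. The collagen genes were low throughout and mixed, with Col3a1 at 0.111 CPM and Col1a2 at 2.34 CPM in uninduced replicate 2, against 0.533 and 6.90 CPM and 0.228 and 2.12 CPM in the Control libraries. The part that other cells, the mitochondrial ribosomal RNA or the 1 library had in the levels of the 9 genes was not tested.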

How the data were processed

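RNA-seq of 6 libraries was analysed. The authors' deposited files hold raw counts of reads per Ensembl gene, 1 file a library, with 0 columns of other samples. Per the submitters' processing notes, HISAT2, StringTie, HTSeq and mm10 were used (no version or role named). Strand and annotation release: not given in the sources used here. Overlapping genes can therefore share reads. GENCODE M21 (GRCm38) named 47310 of 47729 IDs.

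Counts were tested with edgeR 4.0.16 in R 4.3.3 (filterByExpr, minimum count 10 and total 15, leaving 18174 genes; TMM; glmQLFit and glmQLFTest over all 6 libraries, 3 residual degrees of freedom; Benjamini-Hochberg threshold 0.05). CPM use TMM-scaled totals. All 9 genes passed the filter, which keeps a gene that reaches the minimum in 2 libraries of any group. Counts in 1 group can be enough, and Vpreb1 passed only through the 2 uninduced libraries. Its share in counts of genes higher in uninduced is therefore not separate support. Where leaving out a library leaves 1 in a group, the filter asks for 1 library only. A gene can then pass through the library where it is high. Igll1, with counts only in replicate 2 of each group, passed through libraries of different groups. SE is the log2 fold change divided by the root of F. Ratios have 95% exact counting intervals (SciPy 1.17.1). Alternatives were DESeq2 1.42.0, other size factors, no filter, no mitochondrially encoded genes, the 4 compared libraries, a replicate block and leaving out each library; library totals counted before the filter were added after seeing the data.

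The 9 genes, lists, markers and motifs were chosen with earlier results of these data known. From each list the text names called genes (up to 4 by p per comparison) and the 4 with the largest uninduced ratio among those with 20 counts in some library, except 1 gene that is not reported here; Igkj5, Siglech, Tcf4, Bst2, Ly6d, Rag1, Pdgfrb, Pecam1, Col3a1, Col1a2, Cd22, Blk, Cd72, Pik3ap1 and Pik3cd were named after their values were seen. On simulated counts of 18174 genes, the uninduced vs Control test found 2.94% of changes of 2-fold, 36.2% of those of 4-fold and 47.3% of those of 8-fold, and 10 of its 68 calls were false. Sequences are from RefSeq, GRCm38.p6.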

Additional observations from a re-analysis of the deposited data

How the results depend on the processing

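With each library left out in turn, the number of the 9 genes past the threshold ran from 0 to 8 in uninduced vs Control, from 0 to 9 in induced vs uninduced and was 0 in all 6 fits of induced vs Control, and the number of all genes ran from 445 to 2000, 171 to 1374 and 30 to 337. The log2 difference of Ighm in uninduced vs Control ran from -2.78 to 1.50. In induced vs uninduced the differences ran from -13.08 to 0.12 for Pax5, -3.14 to 0.28 for Cd79b, -1.73 to 2.55 for Ighm and -4.32 to 0.48 for Blnk. In induced vs Control they ran from -6.96 to 4.55 for Pax5, -2.69 to 2.31 for Ebf1, -0.23 to 0.84 for Cd79b, -0.54 to 0.18 for Ighm, -4.88 to 3.59 for Igll1, -1.83 to 0.068 for Vpreb1 and -5.67 to 6.90 for Ms4a1. Igll1 could not be tested without uninduced replicate 2 or without mitochondrially encoded genes. Without the filter on low counts, 6 of the 9 genes were called in uninduced vs Control, 7 in induced vs uninduced and 1 in induced vs Control, of 1540, 989 and 304 genes in all (985, 357 and 34 with it). DESeq2 called 3, 1 and 0 of the 9, of 1859, 1238 and 228. Fits of the 4 compared libraries called 0 of 8, 0 of 8 and 0 of 7 that could be tested, of 219, 71 and 177. The causes were not tested. Same-numbered libraries did not deviate together (correlations -0.0407, 0.0266 and 0.00830), so the numbers were not taken to pair samples. With the replicate block, 5, 4 and 0 of the 9 were called, of 1147, 534 and 108 genes. On total counts the uninduced ratio was 8.06 for Cd79b and 14.5 for Ighm, and without mitochondrially encoded genes 15.6 for Ighm. The other size factors and library totals moved no count by over 1.5 times. Depth limits the surrogate light chain genes most, with at most 9 counts outside uninduced replicate 2.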
